A study of Rattus norvegicus with 20 samples.

Results

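Fos, Fosb, Junb, Egr1, Egr2, Egr4, Nr4a1, Nr4a3, Arc and Ier2 are genes that neurons induce quickly when they fire. They were chosen by name, as array probe sets annotated to exactly 1 of these 10 symbols. All 10 were on the array, with 15 probe sets among 31099, and the probe set with the highest mean over all 20 arrays was taken as the main value of each gene. All 10 main values and 12 of the 15 probe sets lay above the filter on low signal used for the tests (mean log2 value above 7.14, the 40th percentile), which kept 18625 probe sets for 10159 genes. The tissue was the central nucleus of the amygdala, a largely GABAergic output nucleus, of P rats, the alcohol-preferring line obtained by selective breeding for voluntary drinking. During adolescence 10 rats had binge-like access to ethanol at 15% and 30% and 10 rats drank water only. Each rat gave 1 array. The sources used here do not give the rats' age in days or sex, the amount drunk, or the time between the last access and tissue collection.

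These genes are called immediate early genes because their transcription needs no new protein. Calcium and cyclic AMP signals activate transcription factors that are already on their promoters, chiefly serum response factor and CREB. The mRNAs rise within minutes of a burst of activity and decay again soon after, so they are widely used to map recently active neurons. Fos, Fosb and Junb encode partners of the AP-1 transcription factor, Egr1, Egr2 and Egr4 encode zinc finger factors, and Nr4a1 and Nr4a3 encode orphan nuclear receptors. Arc encodes a protein of dendrites and synapses that helps to remove AMPA receptors from the membrane. Ier2 encodes a small nuclear protein of the immediate early class.

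Promoter windows of 300 bases, from 250 before to 50 after the RefSeq start (assembly GRCr8), were matched by gene ID for 7 of the 10 genes, Fosb, Junb, Egr1, Egr2, Egr4, Nr4a1 and Ier2. The start of the window is the outer end of the gene for Junb, Egr1, Egr4 and Ier2, and lies inside the gene for Fosb (322 bases downstream of that end), Egr2 (760 bases) and Nr4a1 (12985 bases). Each window was searched on both strands for the CArG box, the element that serum response factor binds, and for the letters TGACG, the core of the cyclic AMP response element. A CArG box was found in Egr1 and Egr2 and in 1.64% of all 33469 windows. TGACG was found in 6 of the 7 windows, all but Fosb, and in 21.2% of all windows. The full palindrome TGACGTCA, which holds the TGACG core on both strands, was found in Ier2 alone among the 7 and in 1.83% of all windows. The windows of Egr2, Nr4a1 and Ier2 are printed because Egr2 varied most among the animals, Nr4a1 holds 4 TGACG cores, and Ier2 was the gene that moved least with the others. Capitals mark CArG boxes and TGACG cores in either orientation. In the Egr2 window the CArG box lies at -83 to -74 from the start and the TGACG core at -66 to -62, and the Egr1 window holds a CArG box and a core at the same positions. These matches describe the letters of the windows only.
Egr2, chr20:21054392-21054691, minus strand: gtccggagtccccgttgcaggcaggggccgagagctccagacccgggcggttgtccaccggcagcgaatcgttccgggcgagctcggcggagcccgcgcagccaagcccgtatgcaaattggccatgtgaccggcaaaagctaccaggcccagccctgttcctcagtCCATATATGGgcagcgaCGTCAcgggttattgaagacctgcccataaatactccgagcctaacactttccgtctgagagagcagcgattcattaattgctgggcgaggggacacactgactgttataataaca
Nr4a1, chr7:134259888-134260187, plus strand: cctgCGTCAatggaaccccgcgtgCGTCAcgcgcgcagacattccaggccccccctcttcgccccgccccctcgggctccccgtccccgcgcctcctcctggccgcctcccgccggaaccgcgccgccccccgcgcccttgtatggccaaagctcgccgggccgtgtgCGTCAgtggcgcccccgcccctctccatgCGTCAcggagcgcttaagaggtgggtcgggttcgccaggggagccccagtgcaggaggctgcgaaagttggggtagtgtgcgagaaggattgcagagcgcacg
Ier2, chr19:40399123-40399422, plus strand: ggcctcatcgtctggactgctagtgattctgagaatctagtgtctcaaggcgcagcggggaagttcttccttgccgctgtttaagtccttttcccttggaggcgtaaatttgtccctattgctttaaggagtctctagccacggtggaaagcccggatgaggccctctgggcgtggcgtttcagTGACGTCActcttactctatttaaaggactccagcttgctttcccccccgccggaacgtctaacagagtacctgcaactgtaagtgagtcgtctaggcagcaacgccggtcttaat

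The array medians lay between 7.92 and 7.97 on the log2 scale, and pairs of arrays correlated at 0.977 to 0.997. Ethanol animal 5 and water animals 15 and 18 correlated least with the other arrays. Of 20 markers fixed for the central amygdala 19 were above the filter, with Gad1, a GABA synthesis enzyme, at 14.34, the opioid peptide gene Penk at 14.57 and the kinase gene Prkcd at 9.70. All 19 striatal markers on the array and 15 of 18 cortical or basolateral markers were above the filter too. Signal above the filter does not show that neighbouring tissue was included. The gene Ppp1r1b, for example, is on both the central amygdala and the striatal list. Fewer cells of a type and less RNA per cell cannot be told apart in such bulk tissue.

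One ethanol animal widened the spread in most of these genes. In ethanol animal 1 the main value of 9 of the 10 genes was the lowest of all 20 animals, Ier2 being the exception, while this animal was the lowest for 8.74% of all probe sets tested. Egr2 read 6.49 in this animal against 9.67 to 11.20 in the other 19, a gap of 3.18 below the next lowest animal and the widest such gap of any probe set tested. The corresponding gaps were 1.59 for Nr4a3, 1.42 for Egr4, 1.07 for Egr1, 1.05 for Junb, 0.94 for Fosb, 0.82 for Fos, 0.82 for Nr4a1 and 0.30 for Arc. Of the 12 probe sets in which this animal lay at least 1 log2 unit below every other animal, 5 were main values of these genes. By the Dixon criterion for a low outlier in its group this animal stood apart in 8 of the 10 genes and in 2.48% of all probe sets. The plot of the values by animal shows the low point in 9 panels.

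**Figure D1:**
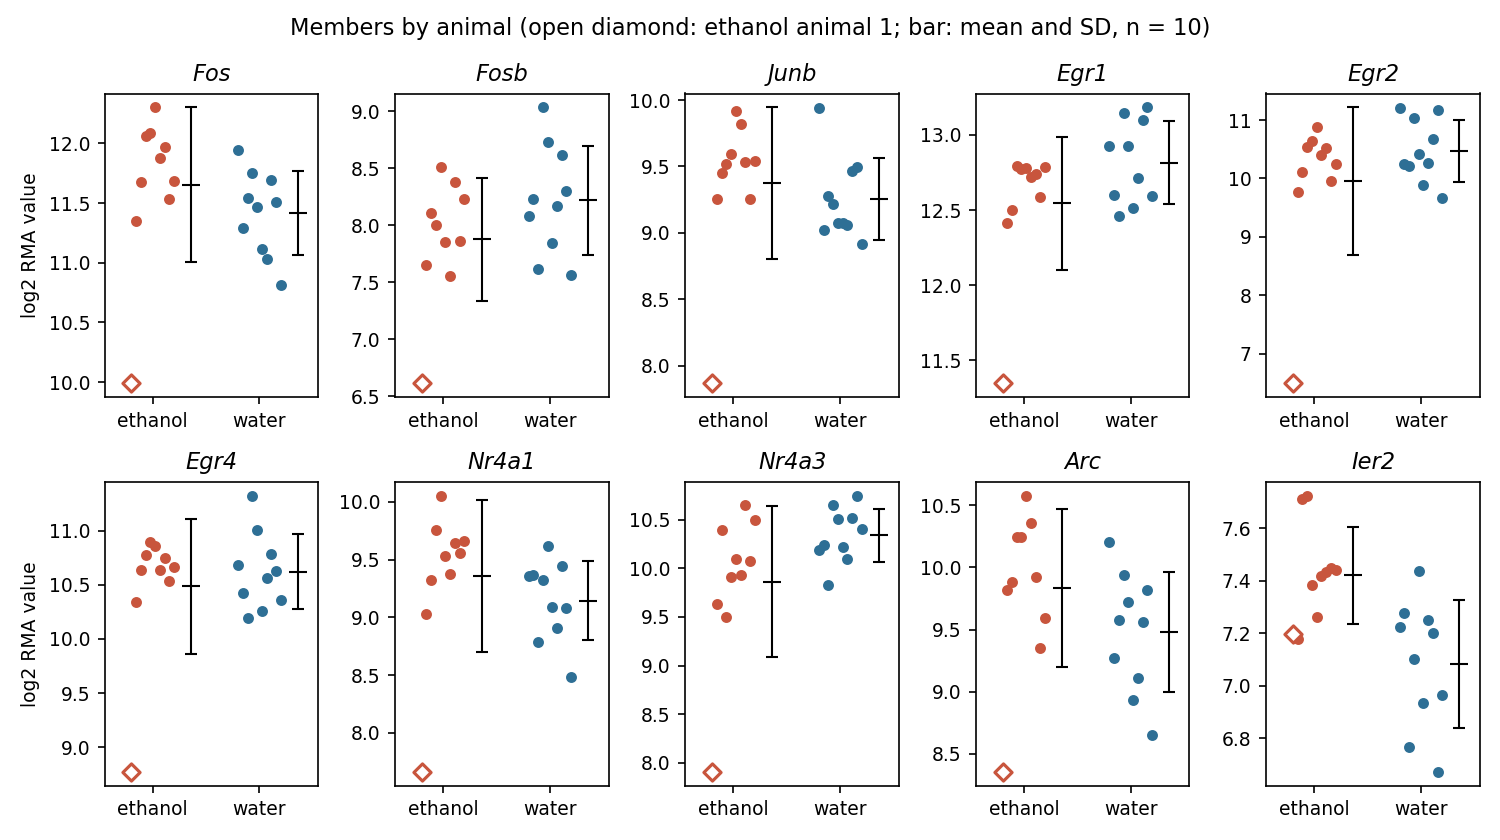
Log2 RMA values of the main probe set of each gene (vertical axes, each with its own range) in 10 ethanol and 10 water animals; the bar beside each group is the mean and SD. The open diamond is ethanol animal 1, the lowest of the 20 animals in 9 of 10 panels, at 6.49 for Egr2 where the other 19 lie between 9.67 and 11.20.

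Of the fixed list of late response genes 3 of 18 were at their lowest in this animal, Plk2, Homer1 and Sertad1, while Nptx1 and Syt4 were among the highest there (ranks 19 and 20 of 20 from the lowest). Homer1, which encodes a postsynaptic scaffold, read 11.04 on its probe set with the highest mean, against a mean of 11.75 over all 20 animals. On other probe sets it read 6.34 against a median of 9.22 in the other animals, and 7.50 against 10.01. These other probe sets, Nptx1 and Syt4 above, and the single markers named below, such as Ppp1r1b and Penk, were picked after their values were seen. Ppp1r1b, the DARPP-32 gene of dopamine-responsive neurons, read 9.20 against 10.97, and Penk read 13.48 against 14.61. The mean of the 19 striatal markers was 9.76 in this animal and 9.92 to 10.96 in the others. Of the 19, 10 were at their lowest there, while Rasgrp2 (9.77) and Rxrg (9.98) were at their highest (rank 20 of 20). Of the central amygdala markers 4 of 19 were at their lowest there, while Isl1 (9.69) and Slc32a1 (12.66) were at their highest. The mean of the central amygdala markers (10.74, rank 3 of 20 from the lowest) and that of cortical or basolateral markers (8.79, rank 3) lay inside the range of the other animals. The mean of 16 pan-neuronal markers (12.27) was the second highest of the 20, and 0 of those 16 were at their lowest there. The array's mean correlation with the others was 0.991, the lowest after the 3 arrays that stood apart, and the animal was the highest of 20 in 2064 probe sets. The part of the striatal markers in the low values was not tested.

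The comparison of ethanol with water asked whether adolescent drinking left these genes at another level. None of the 10 genes passed limma's adjusted threshold of 0.05, against 0.0215% of all probe sets tested (4 of 18625). At an unadjusted p under 0.05 there was 1 of 10, Ier2, against 12.8% of all probe sets. The direction was split evenly, 5 genes with a higher and 5 with a lower mean in ethanol, while 57.8% of all probe sets had a higher mean. The median difference was -0.0065 over the 10 genes and 0.016 over all probe sets.

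Among the AP-1 genes, Fos read 9.99, 11.78 and 12.30 in ethanol and 10.81, 11.49 and 11.95 in water animals (lowest, median and highest). The groups overlapped, although 4 ethanol animals lay above every water animal. The ethanol mean was 11.65 ± 0.65 and the water mean 11.42 ± 0.35 (SD, 10 animals each), apart by 0.24 on the log2 scale (SE 0.22) with a limma adjusted p of 0.649. A second probe set of Fos, at a mean of 5.19 and under the filter, differed by 0.024 (SE 0.044). Fosb, whose splice form DeltaFosB accumulates with repeated stimulation in striatal neurons, read 6.61, 7.93 and 8.51 in ethanol and 7.56, 8.20 and 9.03 in water animals. Its difference was -0.34 (SE 0.21; limma adjusted p = 0.486), so Fos and Fosb lay on opposite sides of 0. Junb, which can also oppose the growth-promoting action of Jun, read 7.87, 9.53 and 9.92 in ethanol and 8.92, 9.15 and 9.94 in water animals. Its difference was 0.12 (SE 0.19; limma adjusted p = 0.804), and it was -0.044 with the myelin score and -0.011 with the striatal score as a covariate.

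All 3 Egr genes had a lower mean in ethanol and none was called. Egr1, the most used plasticity marker of this family, read 11.35, 12.73 and 12.80 in ethanol and 12.46, 12.82 and 13.18 in water animals. The 10 ethanol animals all lay below the water mean of 12.82 ± 0.27 (SD, n = 10), though within the water range for 8 of them. Egr1 differed by -0.27 (SE 0.15; limma adjusted p = 0.445). Egr2 had the largest difference of the 10 genes, -0.52 (SE 0.40; limma adjusted p = 0.581), with 6.49, 10.33 and 10.88 in ethanol and 9.67, 10.35 and 11.20 in water animals. The medians were thus close together, and without ethanol animal 1 the difference was -0.13 (SE 0.19). Egr4 read 8.77, 10.65 and 10.90 in ethanol and 10.20, 10.60 and 11.32 in water animals, a difference of -0.13 (SE 0.21; limma adjusted p = 0.803). It was 0.056 without ethanol animal 1. The other probe sets of Egr2 and Egr4, both under the filter, differed by -0.099 (SE 0.093) and -0.092 (SE 0.076).

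The 2 nuclear receptor genes had opposite signs. Nr4a1, also known as Nur77, read 7.66, 9.54 and 10.05 in ethanol and 8.48, 9.20 and 9.61 in water animals, a difference of 0.21 (SE 0.22; limma adjusted p = 0.682). Nr4a3, also known as NOR-1, read 7.91, 10.01 and 10.65 in ethanol and 9.83, 10.32 and 10.75 in water animals, a difference of -0.48 (SE 0.24; limma adjusted p = 0.404). Its 3 probe sets differed in sign. The probe set with a mean of 9.25 differed by -0.38 (SE 0.18) and the one with a mean of 8.02 by 0.36 (SE 0.18), with limma adjusted p-values of 0.382 and 0.412. The first of these followed the main probe set among animals within groups (r = 0.94, n = 20, as a description), and the second followed it less (r = 0.53). The sources used here do not say which transcripts the 3 probe sets read.

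Arc and Ier2 were the effector and the small nuclear factor. Arc read 8.36, 9.90 and 10.58 in ethanol and 8.65, 9.57 and 10.21 in water animals, and 4 ethanol animals lay above every water animal. Its difference was 0.35 (SE 0.23; limma adjusted p = 0.512). Ier2 read 7.18, 7.43 and 7.72 in ethanol and 6.67, 7.15 and 7.44 in water animals. For Ier2 all 10 ethanol animals lay above the water mean, 4 ethanol animals lay above every water animal, and 5 water animals lay below every ethanol animal. The ethanol mean was 7.42 ± 0.19 and the water mean 7.08 ± 0.24 (SD, 10 animals each), a 1.26-fold difference or 0.34 (SE 0.092) on the log2 scale. That difference did not pass the test over all probe sets (limma adjusted p = 0.239; permutation p = 0.00246), and it was 0.36, 0.17 and 0.63 in the 3 runs of the accession order, a candidate batch that no label names. The Ier2 signal was the weakest of the 10, at the 41.5th percentile of mean signal, just above the filter.

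Leaving out ethanol animal 1 moved the differences upward. Fos was then at 0.42 (SE 0.14), Nr4a1 at 0.40 (SE 0.14), Arc at 0.52 (SE 0.19), Junb at 0.29 (SE 0.12) and Ier2 at 0.36 (SE 0.094). These 5 genes had an unadjusted p under 0.05, against 15.9% of all probe sets in the same setting. None of the 10 passed the adjusted threshold (limma adjusted p from 0.135 for Ier2 to 0.857 for Egr4). Fosb at -0.20 (SE 0.17), Egr1 at -0.14 (SE 0.096), Egr2 at -0.13 (SE 0.19) and Nr4a3 at -0.26 (SE 0.14) kept the lower sign. The plot of the differences sets both fits side by side.

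**Figure D2:**
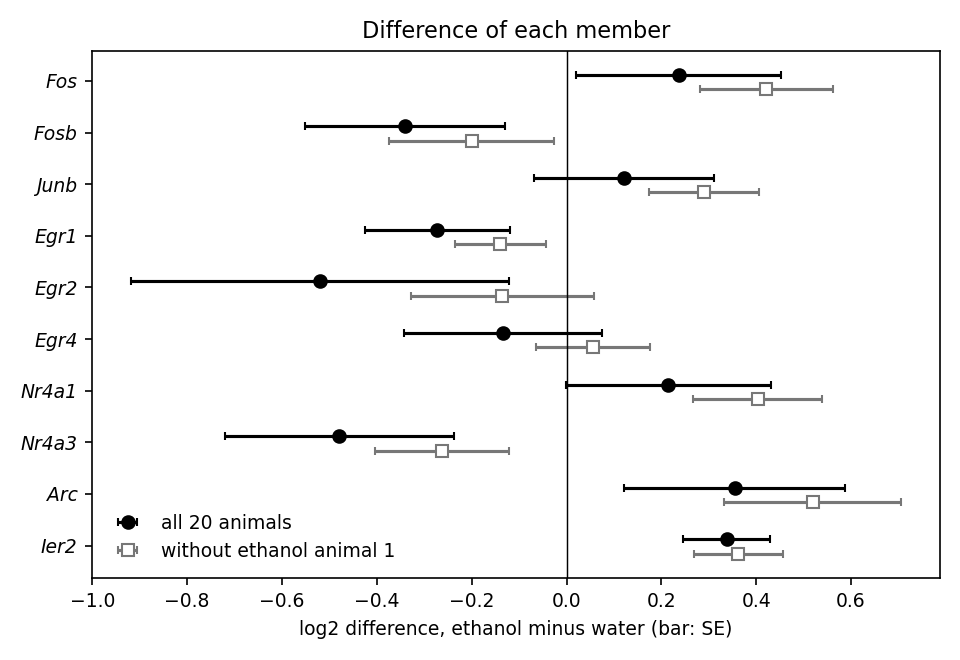
Log2 difference, ethanol minus water, of the main probe set of each gene (horizontal axis; bar: SE) over all 20 animals (black circles) and without ethanol animal 1 (open squares). Fos goes from 0.24 to 0.42 and Arc from 0.35 to 0.52, Egr2 goes from -0.52 to -0.13, and Fosb, Egr1 and Nr4a3 stay below 0.

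The runs differed as well. Fos was at -0.36, 0.73 and 0.45 in the 3 runs, Arc at -0.17, 0.94 and 0.23, and Egr2 at -1.45, 0.30 and -0.31. The first run holds ethanol animal 1, and without it Fos was at 0.06, Arc at 0.23 and Egr2 at -0.53 there. The last run holds 2 animals per group.

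These genes varied more among animals of a group than most probe sets. The SD within groups was 0.97 for Egr2, 0.58 for Nr4a3, 0.56 for Arc, 0.52 for both Fos and Nr4a1, and 0.37 for Egr1, against a median of 0.14 over all probe sets tested. Egr2 ranked 50th of 18625 in this spread. Without ethanol animal 1 the SD was 0.46 for Egr2, 0.44 for Arc, 0.33 for Fos and 0.22 for Egr1, which lay at the 97.9th, 97.6th, 94.1st and 82.4th percentile. Ier2 varied least of the 10, at 0.22 with and without that animal.

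Within groups most of these genes varied together among animals. The deviation of each animal from its group mean was set against that of Fos, which gave 9 relations over 20 animals. How many of all probe sets followed Fos as closely was not counted. The relations are therefore not shown to be particular to these genes, and genes outside the set also varied with them (below). Egr2 followed Fos at r = 0.95 and rho = 0.88 (permutation p = 1e-05 for each, the smallest the test can give; adjusted over the 9 relations 3e-05 and 4.5e-05). Junb was at r = 0.93 (permutation p = 1e-05, adjusted 3e-05) and rho = 0.85 (permutation p = 4e-05, adjusted 0.00012). Arc was at r = 0.93 and rho = 0.87 (permutation p = 1e-05 for each, adjusted 3e-05 and 4.5e-05). Without ethanol animal 1 and water animal 21, the 2 farthest from the median of Fos, r was 0.86 for Egr2, 0.79 for Junb and 0.86 for Arc (permutation p = 7e-05, 9e-05 and 4e-05, each adjusted to 0.00027). In the water animals alone, water animal 21 included, r was 0.85, 0.81 and 0.95.

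Egr1, Egr4 and Nr4a1 followed Fos at r = 0.88, 0.87 and 0.87 (permutation p = 0.0003, 0.00027 and 0.0003, each adjusted to 0.00045). Their rho values were 0.64, 0.75 and 0.56 (permutation p = 0.00408, 0.00043 and 0.0144, adjusted 0.00734, 0.000968 and 0.0216). Without the 2 farthest animals r was 0.63, 0.59 and 0.52 (permutation p = 0.00656, 0.00983 and 0.0319, adjusted 0.0148, 0.0177 and 0.0479). Fosb at r = 0.71 (permutation p = 0.00374, adjusted 0.00481) and rho = 0.47 (permutation p = 0.0467, adjusted 0.0600) was at r = 0.33 without them (permutation p = 0.200, adjusted 0.257). Nr4a3 at r = 0.69 (permutation p = 0.0362, adjusted 0.0407) and rho = 0.23 (permutation p = 0.346, adjusted 0.389) was at 0.13 (permutation p = 0.625, adjusted 0.703). The relations of Fosb and Nr4a3 to Fos thus did not pass without those 2 animals. For Fosb, r was 0.52 in the water animals alone, water animal 21 included, and 0.33 in ethanol animals without animal 1. It was 0.52 in the second run, which holds neither of the 2. These r values of parts of the animals were not tested. Ier2 did not follow Fos, at r = 0.26 (permutation p = 0.242, also when adjusted), rho = 0.06 (permutation p = 0.814, also when adjusted) and r = 0.04 without the 2 farthest animals (permutation p = 0.866, also when adjusted).

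Within the first run of 8 animals r with Fos ran from 0.59 for Ier2 and 0.74 for Fosb to 0.98 for Egr2. Within the second run, also of 8, it ran from 0.14 for Ier2 and 0.36 for Nr4a3 to 0.87 for Egr2. The last run holds 4 animals, too few for a value. With the striatal score as a covariate r was 0.92 for Egr2, 0.91 for Junb and 0.90 for Arc, 0.48 for Fosb, 0.55 for Nr4a3 and -0.05 for Ier2.

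Over all 45 pairs of genes the median r was 0.86 in ethanol animals, 0.41 in ethanol animals without animal 1, and 0.60 in water animals, as a description. The 36 pairs without Ier2 ran from 0.63 to 0.995 (to 3 decimals) in ethanol animals and from 0.07 to 0.95 in water animals. Without animal 1 the closest ethanol pair was Fos with Egr2 at 0.99, and the lowest was Nr4a3 with Arc at -0.33. The 9 pairs with Ier2 had medians of 0.42 in ethanol and 0.11 in water animals. In water animals the pairs with Ier2 ran from -0.089 with Junb to 0.62 with Nr4a1. The matrix plot shows the Ier2 and Nr4a3 rows paling when animal 1 is left out. Pairs outside these rows paled too, such as Fosb with Junb (0.76 to -0.04) and Nr4a1 with Arc (0.79 to 0.18), while Fos with Egr2 held (0.98 to 0.99).

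**Figure D3:**
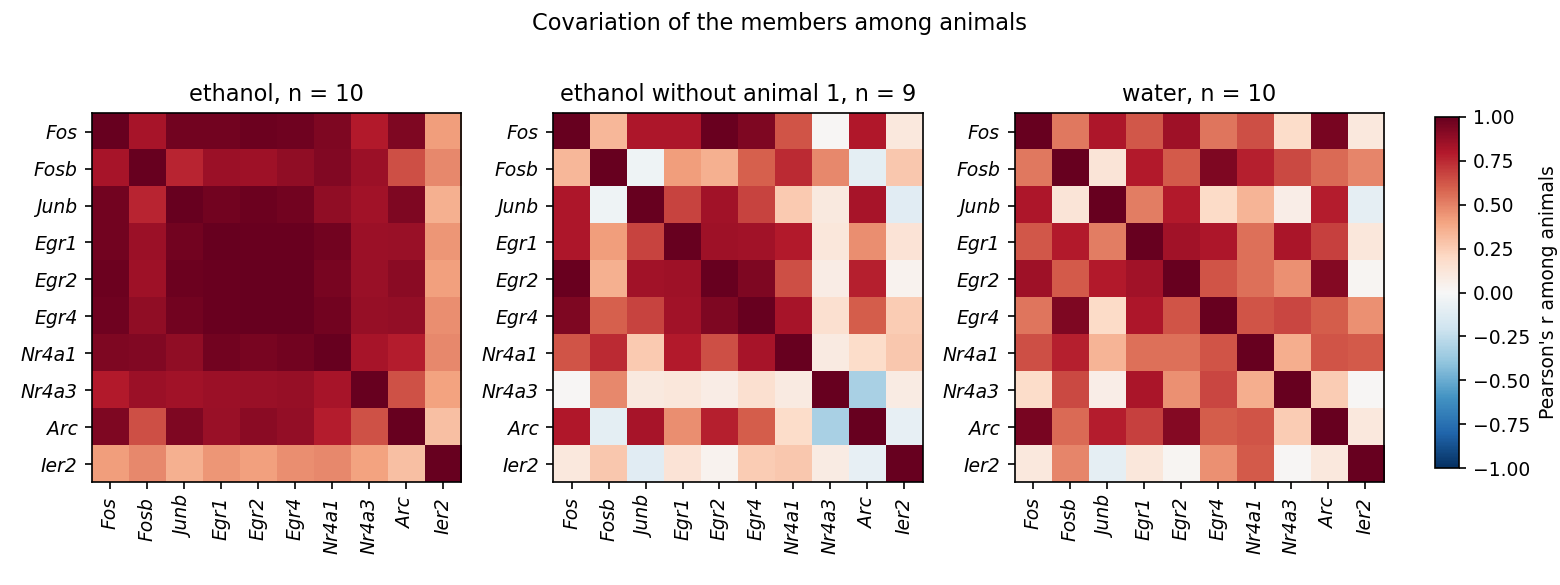
Pearson's r among animals for each pair of genes (colour, from -1 to 1) in 10 ethanol animals, the same group without animal 1 (n = 9) and 10 water animals. The median over the 45 pairs is 0.86, 0.41 and 0.60; the 3 pairs among Fos, Egr2 and Arc stay at 0.78 or above in all 3 panels, and the Ier2 row is palest without animal 1, while in water animals it reaches 0.62 with Nr4a1.

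Since the genes moved together within groups while their group differences had opposite signs, their distance from each other in the same animal was also compared, a choice made after the values were seen. Fos minus Egr2 read 1.42, 1.498 and 3.50 in ethanol and 0.34, 1.03 and 1.34 in water animals on the log2 scale (lowest, median and highest). The groups did not overlap, every ethanol animal having the wider distance. It was the only 1 of the 45 pairs without overlap, and 0.0173% of all pairs of probe sets, 29958 in number, had none either (0.0317% without ethanol animal 1). The means were 1.70 ± 0.64 and 0.94 ± 0.30 (SD, n = 10 per group), a difference of 0.76 (permutation p = 2e-05, the smallest the test can give; adjusted over 45 pairs of genes 0.00045). It was 1.08, 0.43 and 0.76 in the 3 runs and 0.56 without ethanol animal 1, whose own distance of 3.50 was the highest. With the striatal score as a covariate it was 0.94 (SE 0.18). Relative to Arc, Egr2 was lower in ethanol animals as well. Egr2 minus Arc read -1.86, 0.30 and 0.66 in ethanol and 0.63, 1.003 and 1.35 in water animals. That difference was -0.87 (permutation p = 2e-05, adjusted 0.00045), and 9 of 10 ethanol animals lay below every water animal.

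Against Fos, the main probe sets of all 3 Egr genes, Fosb and Nr4a3 were relatively lower in ethanol animals. Fos minus Egr1 averaged -0.89 ± 0.25 with ethanol and -1.40 ± 0.28 with water (SD, 10 animals each), a difference of 0.51 (permutation p = 0.0006, adjusted 0.00411). The differences were 0.37 for Fos minus Egr4 (permutation p = 0.00592, adjusted 0.0140), 0.58 for Fos minus Fosb (permutation p = 0.00458, adjusted 0.0121) and 0.72 for Fos minus Nr4a3 (permutation p = 0.00246, adjusted 0.00852). For Nr4a3 this depended on the probe set, since Fos minus its dimmest probe set differed by -0.12 (SE 0.15; permutation p = 0.414). In each of the 4 distances from a main probe set 10 of 10 ethanol animals lay above the water mean. Fos kept a distance from Junb, Nr4a1, Arc and Ier2 whose group difference did not pass, at 0.11 (SE 0.086), 0.022 (SE 0.12), -0.12 (SE 0.093) and -0.10 (SE 0.23), with permutation p-values of 0.196, 0.858, 0.218 and 0.687 (adjusted 0.285, 0.898, 0.297 and 0.736). In all, 23 of the 45 pairs passed adjusted over the pairs, and 14 passed without ethanol animal 5 and water animals 15 and 18. By the ordinary two-sample statistic 24 of the 45 had an unadjusted p under 0.05, against 12.6% of all 173436000 pairs of probe sets tested. Without ethanol animal 1 it was 26 of the 45, against 15.6% of all pairs. The pairs share genes and are not independent, and they were looked at after the values were seen.

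Distances of this size also occurred within 1 gene. The main probe set of Nr4a3 minus its dimmest probe set averaged 1.66 ± 0.59 with ethanol and 2.50 ± 0.41 with water (SD, 10 animals each), a difference of -0.84 (permutation p = 0.00172). In that comparison 7 of 10 ethanol animals lay below every water animal. Whether the distances between genes reflect transcript forms was not tested.

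**Figure D4:**
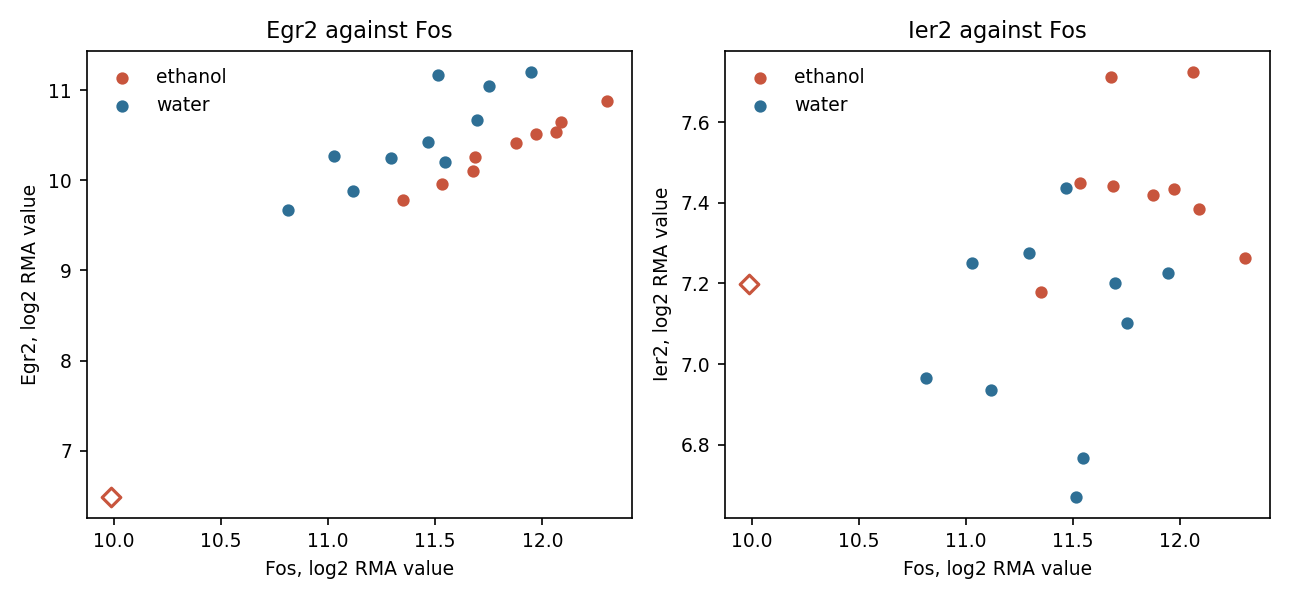
Egr2 (left) and Ier2 (right) against Fos, as log2 RMA values, in 10 ethanol (red) and 10 water (blue) animals; the open diamond is ethanol animal 1. Egr2 rises with Fos in both groups, while Ier2 does not follow Fos. In the left panel the groups overlap on each axis and are apart in the distance between the genes (Fos minus Egr2 at least 1.42 in ethanol and at most 1.34 in water animals).

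Genes outside the set that were most like it were ranked by the correlation of their deviations from the group means, over 20 animals, with the mean standardised deviation of the 10 genes. The 10 highest were Plk2, an activity-induced kinase of synaptic homeostasis (r = 0.89), the calcium-activated potassium channel gene Kcnma1 (0.89), Cracdl (0.87), the ephrin receptor gene Epha4 (0.87), the RNA-binding factor gene Celf2 (0.87), the postsynaptic scaffold gene Baiap2 (0.87), Prepl (0.86), Fkbp1a (0.86), the potassium channel subunit gene Kcnip2 (0.86) and the clock factor gene Npas2 (0.86). Without ethanol animal 1 their r was 0.54 to 0.66, and 0 of these genes stayed among the highest 10. Homer1 was then among the highest 10 with 2 probe sets, at 0.71 and 0.69. These values describe likeness of pattern in arrays that share 1 normalisation.

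Of the other rapid early genes on the list, 28 of 40 were above the filter. In ethanol 10 had a higher and 18 a lower mean, 0 passed the adjusted threshold in either direction, and the median difference was -0.032. By limma 6 of the 28 had an unadjusted p under 0.05, against 12.8% of all probe sets. Those with the smallest p were Nfil3, a transcriptional repressor (-0.29, SE 0.078), the MAP kinase phosphatase gene Dusp1 (0.47, SE 0.15) and Irs2, an insulin receptor substrate gene (-0.16, SE 0.057), with limma adjusted p-values of 0.239, 0.284 and 0.313. Ethanol animal 1 was the lowest of 20 in 14 of the 28, against 8.74% of all probe sets. Per1 (9.47) and the phosphatase gene Dusp6 (9.49), both picked after their values were seen, were among the 14. Jun (9.89, rank 3 from the lowest), Jund (12.26) and Nr4a2 (8.40) were not. Jun, Jund and Nr4a2, close relatives of the genes above, differed between groups by -0.014 (SE 0.058), -0.078 (SE 0.079) and 0.085 (SE 0.13), with limma adjusted p-values of 0.940, 0.683 and 0.794.

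Late response genes, which follow the early factors, had 18 of 28 above the filter, 9 with a higher and 9 with a lower mean, and 0 called. By limma 1 of the 18 had an unadjusted p under 0.05, against 12.8% of all probe sets. The smallest p belonged to Crem, a cyclic AMP-responsive factor gene (-0.24, SE 0.066; limma adjusted p = 0.239), and next came Nrgn (0.18, SE 0.10; 0.453) and Rheb (0.046, SE 0.027; 0.463). Their median difference was -0.0073. Upstream regulators, from calcium and MAP kinases to serum response factor and CREB, had 35 of 39 above the filter. Of these 23 had a higher and 12 a lower mean, and 0 were called. By limma 6 of the 35 had an unadjusted p under 0.05, against the same 12.8%. Camkk1, a calmodulin kinase kinase gene (0.19, SE 0.062), Mrtfa, a coactivator of serum response factor (0.18, SE 0.060), and the synaptic kinase gene Camk2b (0.14, SE 0.059) had the smallest p, with limma adjusted p-values of 0.284, 0.295 and 0.331. AP-1 partners, corepressors and Arc-binding proteins had 16 of 26 above the filter, 8 in each direction, and 0 called. By limma 3 of the 16 had an unadjusted p under 0.05, again against 12.8%. They were the AP-1 partner Atf2 at 0.21 (SE 0.087), the endophilin gene Sh3gl2 at 0.31 (SE 0.14) and Nab1, a corepressor of the Egr factors, at -0.16 (SE 0.071). Each had a limma adjusted p from 0.334 to 0.373.

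Means of some cell type markers differed in 1 direction between the groups, without passing the test. All 17 myelin markers had a lower mean in ethanol, with a median of -0.38 and a mean log2 value over the markers from 10.96 to 12.52 in ethanol and 11.65 to 12.90 in water animals. All 19 striatal markers had a higher mean, with a median of 0.18 and a level from 9.76 to 10.96 in ethanol and 9.92 to 10.71 in water animals. Among the defining genes of these cells, Drd1 was at 0.18 (SE 0.12), Drd2 at 0.20 (SE 0.15), Mag at -0.48 (SE 0.21) and Mog at -0.44 (SE 0.23). The other lists were not all even. Means were lower with ethanol for 5 of 5 choroid plexus and ependymal markers (median -1.08), 11 of 11 meningeal markers (median -0.31) and 12 of 13 astrocyte markers (median -0.063). They were higher for 15 of 16 pan-neuronal markers (median 0.12) and 17 of 19 central amygdala markers (median 0.11). Of the 15 cortical or basolateral markers 7 were higher and 8 lower, with a median of -0.0076. None of the markers of the 10 cell type lists was called by limma. By limma an unadjusted p under 0.05 was reached by 8 of 17 myelin, 2 of 19 striatal, 2 of 5 choroid plexus and ependymal and 0 of 11 meningeal markers. It was reached by 2 of 13 astrocyte, 5 of 16 pan-neuronal, 0 of 19 central amygdala and 0 of 15 cortical or basolateral markers. The counts were 2 of 12 for vessel and 1 of 11 for microglial markers, against 12.8% of all probe sets. A higher mean was seen in 57.8% of all probe sets. With the striatal score as a covariate the higher genes came closer to 0, with Fos at 0.053 (SE 0.18), Arc at 0.18 (SE 0.21), Nr4a1 at -0.013 (SE 0.15) and Junb at -0.011 (SE 0.17), while Ier2 stayed at 0.28 (SE 0.087). The lower genes moved further down, with Egr2 at -0.88 (SE 0.32), Nr4a3 at -0.65 (SE 0.22), Fosb at -0.56 (SE 0.15), Egr1 at -0.43 (SE 0.11) and Egr4 at -0.37 (SE 0.13). With the myelin score Fos was at 0.049 (SE 0.22), Arc at 0.11 (SE 0.23) and Egr2 at -0.90 (SE 0.40). None of the 10 genes passed the adjusted threshold in either fit (limma adjusted p from 0.203 with the striatal and from 0.274 with the myelin score).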

How the data were processed

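Affymetrix arrays of the central amygdala of 20 rats were used, 10 per group, grouped by the labels. Per the submitters' processing notes the authors made the values with RMA. The sources used here do not give its version, the scanner or any filters. What they deposited is on a log2 scale, 1 value per probe set, the base being read from the range of 3.82 to 16.16.

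Gene symbols were taken from the array's probe table and a RefSeq table of assembly GRCr8. Probe sets with a mean above the 40th percentile were kept, and the groups were compared by limma's moderated test (limma 3.58.1 under R 4.3.3, both directions), Benjamini-Hochberg adjusted over all 18625. The fit was tested on simulated data. Single values were tested two-sided by permutation of animals with 100000 resamples (correlations within groups), and by exact enumeration where a group had under 10 animals, using scipy 1.17.1 and numpy 2.4.6 in Python 3.11.15 (tables in pandas 2.3.3, plots in matplotlib 3.10.9). Distances between genes were tested after the values were seen, and set beside those of all pairs of probe sets by the pooled two-sample statistic. The 10 genes, the gene lists and most settings were chosen with earlier results of these data known. Named genes were the 10 genes with all probe sets, the 3 list members with the smallest p, and the 10 genes most like the set; others were picked after their values were seen and are said to be so, or are markers or relatives set beside a result. An array was taken to stand apart if it correlated with the others at a mean below 0.990 (3 scaled median absolute deviations under the typical array). The accession order falls into 3 runs with both groups in equal number. The alternatives were no filter, the 60th percentile, median centring, cyclic loess, array weights, trend and robust eBayes, blocking on the run, a covariate (a marker score or the control probes' 3'/5' ratio), and leaving out animals. P-values set each result against the spread among these animals, whose number limits the precision.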

Additional observations from a re-analysis of the deposited data

Results flagged for a closer look

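Ethanol animal 1 lay far below the rest of its group in 8 of the 10 genes, at 9.99 for Fos, 6.61 for Fosb, 7.87 for Junb, 11.35 for Egr1, 6.49 for Egr2, 8.77 for Egr4, 7.66 for Nr4a1 and 7.91 for Nr4a3 (log2 values). The gap to the next lowest ethanol animal took 0.497 (Fosb) to 0.748 (Egr2) of the whole range of the group, where 0.466 is Dixon's critical value for 10 samples. Chance alone would mark about 1 group in 20 for a single gene, counting any of the 10 animals at either end. These 8 genes covary. The same animal met the mark as a low value in 2.48% of all probe sets tested. That share covers 1 named animal at the low end only, so it cannot be set against 1 in 20. No water animal was marked.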

How the results depend on the processing

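No gene of the set passed limma's adjusted threshold of 0.05 in any of the 32 alternatives in which it was tested, leave-one-out settings included; Fosb and Ier2 lie under the filter at the 60th percentile and were not tested there. Several differences moved by over 1.5 times. With array quality weights Fos was at 0.45, Arc at 0.62, Nr4a1 at 0.39, Junb at 0.25, Egr1 at -0.15, Fosb at -0.17 and Egr2 at -0.13. With the myelin score Egr2 was at -0.90, Egr4 at -0.31, Fos at 0.049, Arc at 0.11 and Nr4a1 at 0.13. With the striatal score Egr2 was at -0.88, Egr4 at -0.37, Fosb at -0.56, Egr1 at -0.43, Fos at 0.053 and Arc at 0.18. With the 3'/5' ratio Junb was at 0.078. Averaged over all its probe sets Nr4a3 was at -0.17, Egr2 at -0.31 and Fos at 0.13. The count over all probe sets, 4 in the fit reported, was 2 with the filter at the 60th percentile, 23 with array quality weights, 0 with the myelin score (limma, adjusted) and 1 with the striatal score as a covariate, and 1 to 8 when single animals were left out (1 without ethanol animal 6 or water animal 14, 16, 17 or 18, 2 without ethanol animal 3, 8 without water animal 20). Signs changed for Junb (-0.044 with the myelin and -0.011 with the striatal score), Egr4 (0.069 with array quality weights, -0.18 to 0.056 when single animals were left out, above 0 without ethanol animal 1) and Nr4a1 (-0.013 with the striatal score). They also changed for the correlation of Ier2 with Fos (-0.048 with the striatal score). The cause was not tested. A limma fit of every probe set relative to a member was also tried and dropped, because all its rows share the error of that member. By the ordinary two-sample statistic 24 of the 45 pairs of genes had an unadjusted p under 0.05, against 12.6% of all pairs of probe sets. By the permutation test adjusted over the pairs, the distance differed in 23 of 45. These pairs became 14 without the 3 arrays that correlate least, a setting with fewer animals, and 22 to 24 without single animals. They numbered 23 with permutation within runs and 23 with cyclic loess, all of these chosen after seeing the data. No paired analysis was possible because no animal number occurs in both groups.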
